A study of Mus musculus with 16 samples.

Results

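The genes described here are 10 regulators and marker genes of mesenchymal transition, taken by name out of the 54532 genes listed in each of the deposited tables. They comprise 3 structural genes (Vim, Cdh2 and Fn1) and 7 genes of transcription factors (Zeb1, Zeb2, Snai1, Snai2, Twist1, Twist2 and Prrx1). All 10 were present in both tables, passed the filters on low values in both and are protein-coding genes. The rule that chose them is a list of names and uses no measured value.

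The RNA came from tumours of KPC1199, a mouse pancreatic cancer line, grown in the mouse pancreas. The series asks how Ly6d, a gene of a small cell surface protein of the Ly6 family, affects the start and growth of such tumours. Of 16 labelled samples in 6 groups, 8 libraries were used, 2 in each of 4 groups: cells overexpressing Ly6d, WT cells, cells sorted for high Ly6d (Ly6d-high) and cells sorted for low Ly6d (Ly6d-low). All 4 groups were labelled as KPC1199 cells sorted after growth in the pancreas, and both tumour tissue groups, of 4 samples each, were not analysed here. Neither the vector, the host animals, the sorting gates nor whether libraries of a group came from separate animals is given in the labels, so p-values measure only the spread between these libraries. Columns of the overexpression group carry a name that the labels give to overexpression tumours, and the library name of the WT columns occurs in the titles of sorted WT and of tissue WT samples alike. Whether the libraries of that table were sorted cells or tissue therefore rests on the names, and the values below apply to those columns under either reading.

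Epithelial to mesenchymal transition is the process by which cells joined in an epithelial sheet loosen their junctions and take on a migratory, fibroblast-like state. Factors of the Zeb, Snail and Twist families and Prrx1 drive it, and Zeb and Snail factors bind E-box sequences in the promoters of junction genes and repress them. Vimentin filaments, N-cadherin and fibronectin are the usual marks of the state reached. In pancreatic cancer these genes are expressed by carcinoma cells that have moved along this path and also by fibroblasts of the stroma. In RNA from many cells, fewer cells of a type and less RNA per cell cannot be told apart.

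The promoters of the junction genes below hold the E-box that Zeb and Snail factors recognise, as do most genes of their list with an entry. Of that list, the genes shown are those with the largest called rises in Ly6d-high cells. The promoter of Snai1 is shown because it is a member with the same letters at its own start. The search was for CACCTG and its reverse complement CAGGTG, which do not overlap each other, over both strands of 250 bases before to 50 bases after each gene's start in RefSeq (GRCm38.p6). One or the other was found in 6098 of 27025 genes (22.6%). Among 26 epithelial junction and keratin genes, 17 of the 19 with an entry held it, and so did 5 of 9 genes of epithelial gatekeepers, the factors that hold cells in the epithelial state. Of the 10 members, 6 were matched to an entry (not Cdh2, Fn1, Zeb1 or Snai2), and of these Snai1 held the motif. The sequences are written on the gene's strand with the motif in capitals. A match describes letters and is not a measured binding site.
Cldn4: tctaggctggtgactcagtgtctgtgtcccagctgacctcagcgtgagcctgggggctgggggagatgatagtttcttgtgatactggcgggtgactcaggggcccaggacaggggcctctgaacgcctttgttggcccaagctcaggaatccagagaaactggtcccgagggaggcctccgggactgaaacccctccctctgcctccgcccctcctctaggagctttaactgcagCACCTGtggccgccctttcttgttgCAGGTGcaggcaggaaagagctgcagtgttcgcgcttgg
Rab25: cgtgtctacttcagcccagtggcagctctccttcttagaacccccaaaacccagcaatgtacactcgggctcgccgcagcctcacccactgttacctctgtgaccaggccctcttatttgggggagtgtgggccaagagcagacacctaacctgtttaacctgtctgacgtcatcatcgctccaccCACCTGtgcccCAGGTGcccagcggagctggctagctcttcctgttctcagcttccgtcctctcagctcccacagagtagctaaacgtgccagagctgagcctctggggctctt
Ap1m2: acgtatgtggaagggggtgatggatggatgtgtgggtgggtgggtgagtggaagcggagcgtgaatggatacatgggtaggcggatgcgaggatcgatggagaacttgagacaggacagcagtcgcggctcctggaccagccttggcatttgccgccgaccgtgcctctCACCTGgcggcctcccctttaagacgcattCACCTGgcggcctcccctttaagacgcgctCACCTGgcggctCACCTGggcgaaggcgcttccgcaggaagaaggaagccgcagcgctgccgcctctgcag
Snai1: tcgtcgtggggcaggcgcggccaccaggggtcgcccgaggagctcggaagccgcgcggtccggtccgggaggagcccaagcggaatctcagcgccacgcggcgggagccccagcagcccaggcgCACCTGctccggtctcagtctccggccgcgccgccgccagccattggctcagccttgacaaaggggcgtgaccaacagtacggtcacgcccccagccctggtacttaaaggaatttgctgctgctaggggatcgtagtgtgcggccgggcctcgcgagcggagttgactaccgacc
Cldn4, the gene of a tight junction claudin (chr5:134946885-134947184, minus strand), held the motif at -14 and 12, counted from the first base of the gene. Rab25, a small GTPase of epithelial membrane traffic (chr3:88548230-88548529, minus strand), held it at -64 and -53. In Ap1m2, a subunit of the epithelial clathrin adaptor (chr9:21312284-21312583, minus strand), it stood at -81, -51, -21 and -9. In Snai1 (chr2:167537945-167538244, plus strand) it stood at -126.

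Library totals ran from 15449241 to 18290325 counts in the overexpression and WT libraries and from 15063975 to 20509539 reads, recovered from the deposited TPM, in Ly6d-high and Ly6d-low cells. Ly6d had 3380 and 3423 CPM (counts scaled to the library total) in overexpression libraries, against 1260 and 1066 CPM in WT libraries. It had 697 and 504 TPM in Ly6d-high cells, against 1.56 and 0.352 TPM in Ly6d-low cells. Tumour epithelium markers were present in every library, and none of the 13 fibroblast or 13 macrophage markers was at 0 in every library of a table. Per base of gene length, the summed fibroblast markers were 0.118 to 0.125 times the summed tumour epithelium markers in overexpression libraries and 0.111 to 0.125 times in WT libraries. The same ratio was 0.0125 to 0.0151 in Ly6d-high cells and 0.00839 to 0.00841 in Ly6d-low cells. Its divisor also differed there: tumour epithelium markers summed to 40032 to 40614 TPM in Ly6d-high cells and 56397 to 57584 TPM in Ly6d-low cells. The part of other cell types in the members' levels was not tested.

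Of the 10 members, Fn1 rose in overexpression libraries against WT libraries and none fell, by edgeR's quasi-likelihood test over 15771 genes with a threshold of 0.05 on the Benjamini-Hochberg adjusted p. The background share of genes called was 2.32% higher and 1.84% lower, 4.16% in either direction. Fn1 was 1.25-fold higher, with a 95% interval of 1.15 to 1.36. With edgeR's unadjusted p under 0.05 there were 5 members, all higher with overexpression: Vim, Cdh2, Fn1, Zeb1 and Zeb2. Over all genes, 2727 of 15771 were under that unadjusted p, in either direction. The groups did not overlap for 6 members that were higher in overexpression (Vim, Cdh2, Fn1, Zeb1, Zeb2 and Twist1) and for 1 that was lower (Twist2), where over all genes tested 26.3% were higher and 21.7% lower without overlap. Above 0 lay 7 of 10 members and 49.8% of all genes. The members' median log2 fold change was 0.18, and that of all genes was -0.00.

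Fn1 (ENSMUSG00000026193, GRCm38 chromosome 1, 71585520 to 71653200, minus strand) encodes fibronectin, a matrix protein that cells bind through integrins. It had 12741 and 12308 CPM in overexpression libraries, against 9627 and 10144 CPM in WT libraries. Both overexpression libraries lay above both WT libraries, and Fn1 had more counts than any other gene in each of the 4, taking 1.27% and 1.23% of counts with overexpression and 0.963% and 1.01% in WT. The log2 fold change was 0.32 ± 0.05 (SE; adjusted p = 0.00572, edgeR). Without overexpression replicate 1 it was 0.30 and the adjusted p was 0.0576, the single alternative of 10 in which the call was lost.

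Vim (ENSMUSG00000026728, chromosome 2, 13573927 to 13582826, plus strand) encodes vimentin, the intermediate filament of mesenchymal cells. It had 4253 and 4371 CPM in overexpression libraries, against 3872 and 3659 CPM in WT libraries. The groups lay apart, by less than for Fn1. The log2 fold change was 0.18 ± 0.06 (adjusted p = 0.127, edgeR). It passed the threshold under DESeq2 (adjusted p = 0.00993), without the filter on low counts in edgeR (0.0309), without WT replicate 1 (1.03e-06) and without WT replicate 2 (0.00211), the last pair resting on a lone WT library assumed to vary like the others. DESeq2 called 1.54% of all genes higher and 1.14% lower, and edgeR without the filter 2.42% and 2.30%.

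Cdh2 (ENSMUSG00000024304, chromosome 18, 16588877 to 16809246, minus strand) encodes N-cadherin, the adhesion protein that replaces E-cadherin in the mesenchymal state. It had 51.8 and 47.5 CPM in overexpression libraries, against 37.2 and 39.9 CPM in WT libraries. Overexpression libraries lay above WT libraries by more than either group's own spread. Its log2 fold change of 0.35 ± 0.11 was larger than that of Fn1, on 616 to 947 counts a library, and had an adjusted p of 0.119 (edgeR).

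**Figure D1:**
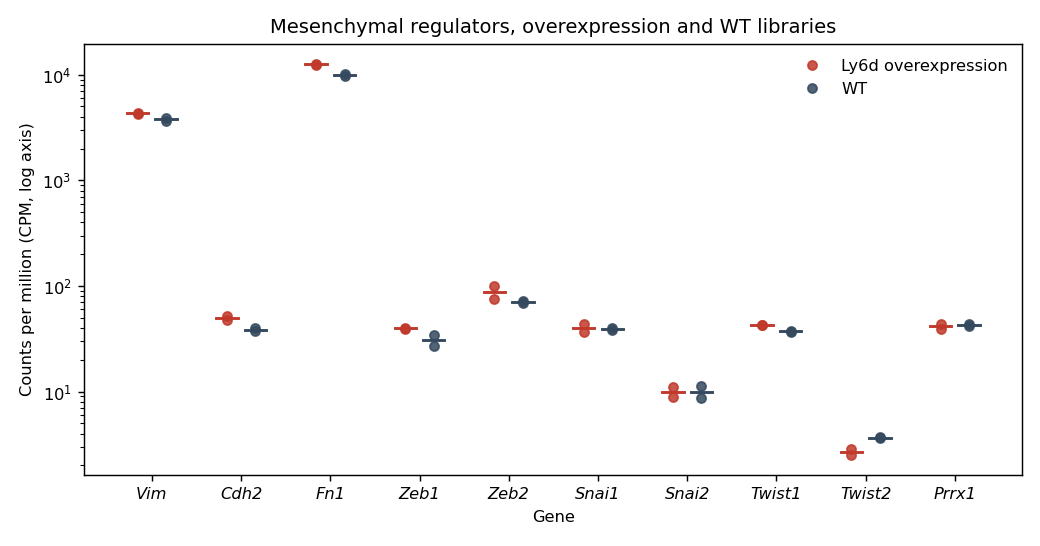
CPM of each of the 10 members (log axis, not divided by gene length) in overexpression libraries and WT libraries. Each point is a library and each bar the mean of 2 libraries; Fn1 and Vim stand far above the 8 other members, and Twist2 is the lowest.

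Zeb1 (ENSMUSG00000024238, chromosome 18, 5591860 to 5775467, plus strand) and Zeb2 (ENSMUSG00000026872, chromosome 2, 44983632 to 45117395, minus strand) encode repressors that bind the E-box through zinc fingers near both ends of the protein. Zeb1 had 39.5 and 40.4 CPM in overexpression libraries, against 34.3 and 26.9 CPM in WT libraries. Zeb2 had 99.5 and 75.2 CPM in overexpression libraries, against 72.1 and 68.4 CPM in WT libraries. In both genes the groups lay apart, but the spread within a group was wide: between WT libraries for Zeb1, and between overexpression libraries for Zeb2. The log2 fold changes were 0.37 ± 0.13 for Zeb1 (adjusted p = 0.183, edgeR) and 0.30 ± 0.12 for Zeb2 (adjusted p = 0.227, edgeR). Both values changed in size, though not in sign, when single libraries were left out. Without overexpression replicate 1 the log2 fold change of Zeb2 was 0.08 (adjusted p = 0.681, edgeR), and without overexpression replicate 2 it was 0.48 and passed the threshold (0.00465). That of Zeb1 was 0.53 without WT replicate 1 and 0.21 without WT replicate 2.

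Snai1 (ENSMUSG00000042821, chromosome 2, 167538195 to 167542814, plus strand) and Snai2 (ENSMUSG00000022676, chromosome 16, 14705852 to 14709385, plus strand) encode Snail and Slug, zinc finger repressors of E-cadherin. Snai1 had 36.9 and 43.6 CPM in overexpression libraries, against 37.9 and 40.2 CPM in WT libraries. Snai2 had 11.1 and 8.89 CPM in overexpression libraries, against 11.3 and 8.61 CPM in WT libraries. The groups overlapped in both genes, and their means differed by less than the spread within either group. The 95% interval of the log2 fold change was -0.25 to 0.30 for Snai1 and -0.52 to 0.49 for Snai2. The direction of both small differences turned when single libraries were left out, and that of Snai2 also when libraries were scaled by their totals alone.

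Twist1 (ENSMUSG00000035799, chromosome 12, 33957671 to 33959829, plus strand) and Twist2 (ENSMUSG00000007805, chromosome 1, 91801461 to 91848028, plus strand) encode basic helix-loop-helix factors of mesoderm and connective tissue. Twist1 had 42.9 and 42.8 CPM in overexpression libraries, against 36.6 and 37.9 CPM in WT libraries. Twist2 had 2.84 and 2.50 CPM in overexpression libraries, against 3.70 and 3.62 CPM in WT libraries. These related genes thus lay on opposite sides, Twist1 higher and Twist2 lower with overexpression, each without overlap. Neither passed the threshold: the log2 fold change was 0.19 ± 0.11 for Twist1 (adjusted p = 0.436, edgeR) and -0.47 ± 0.40 for Twist2 (adjusted p = 0.612, edgeR), the second on 45 to 67 counts a library. Gm29100, which lies antisense to Twist2, had 7 to 35 counts in the same libraries, and no source used here says whether reads were counted by strand.

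Prrx1 (ENSMUSG00000026586, chromosome 1, 163245119 to 163313710, minus strand) encodes a paired-type homeobox factor of limb and craniofacial mesenchyme. It had 44.0 and 39.1 CPM in overexpression libraries, against 43.8 and 41.9 CPM in WT libraries. Its groups overlapped, and the 95% interval of its log2 fold change, -0.31 to 0.18, took in 0. Without overexpression replicate 2 its sign turned.

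Markers of other cell types moved in the same comparison. The summed fibroblast markers were 6886 to 6923 CPM in overexpression libraries and 5891 to 6512 CPM in WT libraries, and 2 of the 13 were called higher (Col1a2 and Pdgfrb). Macrophage markers summed to 334 to 349 CPM with overexpression and 157 to 166 CPM in WT, with 6 of 13 called higher, and neutrophil markers to 171 to 184 CPM with overexpression and 54.3 to 55.2 CPM in WT, with 6 of 8 tested called higher. Endothelial markers summed to 189 to 225 CPM with overexpression and 364 to 368 CPM in WT, with 7 of 11 called lower, and all 8 acinar markers were called lower. None of the 8 tumour epithelium markers was called by edgeR in either direction, with 3 at an unadjusted p under 0.05. The part of these cell types in the members' differences was not tested.

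In Ly6d-high cells against Ly6d-low cells, 0 of 10 members passed an adjusted p under 0.05 (limma on log2(TPM + 1) over 14625 genes), and 0 did with edgeR or DESeq2 on the recovered reads. At an unadjusted p under 0.05 there were 4: Snai2, Twist1, Fn1 and Twist2, all with the higher values in Ly6d-high cells. Over all genes, 4499 of 14625 were under that unadjusted p, in either direction. By the adjusted p, the background share of genes called was 8.64% higher and 1.17% lower, 9.81% in either direction. The 2 groups did not overlap for 7 members, all higher in Ly6d-high cells, where over all genes tested 54.4% were higher and 10.4% lower without overlap. The TPM table leaned to one side: the median difference of all genes was 0.25 on the log2(TPM + 1) scale and 76.7% of genes lay above 0. Of the members 9 of 10 lay above 0 and 8 of 10 above the median of all genes, and their median was 0.40. With TMM scaling, which put the median of all genes at 0.01, 0 members were called, and the genes called were 702 higher (4.80%) and 246 lower (1.68%) in place of 1264 and 171. On the recovered reads they were 1224 (8.01%) and 591 (3.87%) with edgeR and 935 (3.56%) and 602 (2.29%) with DESeq2.

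Snai2 and Twist1 came nearest to the threshold. Snai2 had 41.9 and 50.4 TPM in Ly6d-high cells, against 28.5 and 31.3 TPM in Ly6d-low cells. Twist1 had 41.1 and 43.6 TPM in Ly6d-high cells, against 30.3 and 29.7 TPM in Ly6d-low cells. Both Ly6d-high libraries lay above both Ly6d-low libraries in each gene. The difference on the log2(TPM + 1) scale was 0.61 ± 0.16 for Snai2 (adjusted p = 0.0569, limma) and 0.48 ± 0.14 for Twist1 (adjusted p = 0.0741, limma), which is 0.36 and 0.24 beyond the median of all genes.

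Fn1 had 228 and 297 TPM in Ly6d-high cells, against 179 and 189 TPM in Ly6d-low cells. Twist2 had 3.65 and 4.69 TPM in Ly6d-high cells, against 2.29 and 2.47 TPM in Ly6d-low cells. Prrx1 had 4.08 and 4.66 TPM in Ly6d-high cells, against 2.66 and 3.32 TPM in Ly6d-low cells. In all 3 the Ly6d-high libraries were above the Ly6d-low libraries. The differences were 0.50 ± 0.15 for Fn1 (adjusted p = 0.0847, limma), 0.61 ± 0.21 for Twist2 (0.107) and 0.43 ± 0.20 for Prrx1 (0.194). Twist2 rested on 93 and 99 reads in Ly6d-high cells and 44 and 60 reads in Ly6d-low cells.

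Cdh2 had 5.21 and 7.33 TPM in Ly6d-high cells, against 4.56 and 4.61 TPM in Ly6d-low cells. Zeb2 had 3.10 and 3.85 TPM in Ly6d-high cells, against 2.57 and 2.51 TPM in Ly6d-low cells. Zeb1 had 5.37 and 8.55 TPM in Ly6d-high cells, against 5.21 and 5.44 TPM in Ly6d-low cells. The groups lay apart for Cdh2 and Zeb2 and overlapped for Zeb1, and in all 3 genes Ly6d-high replicate 2 was the highest library. Their differences of 0.37 ± 0.21, 0.33 ± 0.20 and 0.30 ± 0.23 were within 0.12 of the median of all genes. Without Ly6d-high replicate 1 the difference was 0.58 for Cdh2, 0.45 for Zeb2 and 0.60 for Zeb1, and without Ly6d-high replicate 2 it was 0.15, 0.21 and 0.01.

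Vim had 1077 and 1296 TPM in Ly6d-high cells, against 1070.2 and 1138 TPM in Ly6d-low cells. Snai1 had 5.46 and 5.38 TPM in Ly6d-high cells, against 5.003 and 6.14 TPM in Ly6d-low cells. The groups overlapped in both, and both genes lay below the median of all genes, by 0.15 for Vim and by 0.27 for Snai1. The 95% interval of the difference was -0.17 to 0.37 for Vim and -0.47 to 0.41 for Snai1. With TMM scaling the sign for Vim turned, to -0.18.

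The members' differences changed when single Ly6d-high libraries were left out, which leaves a lone library in that group. The difference of Twist1 was 0.53 without Ly6d-high replicate 1 and 0.44 without replicate 2. The difference of Fn1 was 0.69 without Ly6d-high replicate 1 and 0.31 without replicate 2, and that of Snai2 was 0.74 and 0.48. In Ly6d-high cells 9 of 10 members had more TPM in replicate 2 than in replicate 1, as had 71.2% of all genes.

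**Figure D2:**
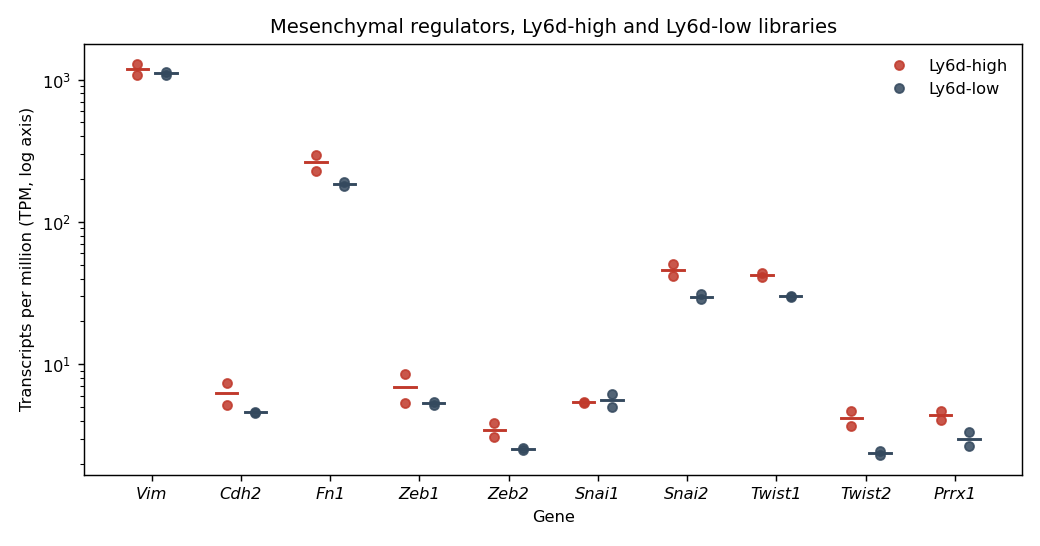
TPM of each of the 10 members (log axis) in Ly6d-high cells and Ly6d-low cells. Each point is a library and each bar the mean of 2 libraries; Snai2 and Twist1 show 2 points above 2 without overlap, while the points of Vim, Zeb1 and Snai1 interleave.

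Markers of other cells moved here too. Macrophage markers summed to 851 to 898 TPM in Ly6d-high cells and 276 to 279 TPM in Ly6d-low cells, with 5 of 10 tested called higher. Fibroblast markers summed to 506 to 603 TPM in Ly6d-high cells and 473 to 484 TPM in Ly6d-low cells, with 1 of 12 tested called higher. Mural markers summed to 241 to 258 TPM in Ly6d-high cells and 141 to 149 TPM in Ly6d-low cells, with 1 of 3 tested called higher, and 0 of 8 endothelial markers were called by limma, with 2 at an unadjusted p under 0.05. Tumour epithelium markers summed to 40032 to 40614 TPM in Ly6d-high cells and 56397 to 57584 TPM in Ly6d-low cells, with 4 keratins called lower and Cldn7 higher. The part of these shifts in the members' differences was not tested.

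**Figure D3:**
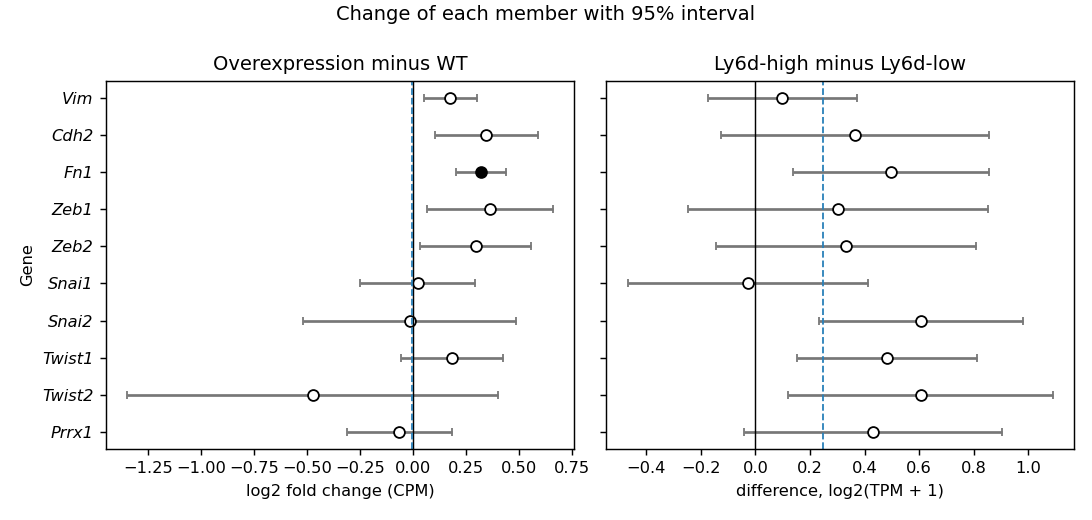
Difference of each member with its 95% interval, overexpression against WT at left (log2 fold change of CPM) and Ly6d-high against Ly6d-low at right (log2(TPM + 1) scale). The filled point, Fn1 at left, passed the threshold, and the dashed line marks the median of all genes, at -0.00 at left and 0.25 at right.

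Set against each other per length, the members spanned a wide range. In the overexpression and WT libraries the mean level was 959 RPKM for Fn1 and 851 RPKM for Vim, then 24.6 for Twist1 and 24.5 for Snai1, 5.47 for Cdh2 and 4.94 for Snai2. Below these came 3.95 RPKM for Zeb2, 3.81 for Prrx1, 3.44 for Zeb1 and 0.998 for Twist2. Neighbours from Twist1 to Snai1, Cdh2 to Snai2, and among Zeb2, Prrx1 and Zeb1 did not keep their order in every library. All other neighbours kept it in all 4.

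In Ly6d-high and Ly6d-low cells the order began with Vim at a mean of 1145 TPM, Fn1 at 223, Snai2 at 38.0 and Twist1 at 36.2 TPM. Zeb1 at 6.14, Snai1 at 5.50 and Cdh2 at 5.42 TPM followed, and then Prrx1 at 3.68, Twist2 at 3.28 and Zeb2 at 3.01 TPM. The order was not kept in every library between Snai2 and Twist1, within the group of Zeb1, Snai1 and Cdh2, or within that of Prrx1, Twist2 and Zeb2. The 7 transcription factors summed to 105 and 121 TPM in Ly6d-high cells, against 76.5 and 80.8 TPM in Ly6d-low cells. Their sum was 68.3 and 69.6 RPKM in overexpression libraries, against 63.5 and 63.3 RPKM in WT libraries.

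The ratio of both Snail genes within a library needs no scaling between libraries, and it stood on opposite sides of 1 in the 2 tables. Snai1 per length was 4.14 and 6.11 times Snai2 in overexpression libraries, against 4.18 and 5.82 times in WT libraries. It was 0.130 and 0.107 times Snai2 in Ly6d-high cells, against 0.176 and 0.196 times in Ly6d-low cells. All 4 libraries of the count table thus had Snai1 as the more abundant, and all 4 of the TPM table had Snai2. Relative to the summed tumour epithelium markers per length, Snai1 was 0.347% and 0.389% in overexpression libraries and 0.375% and 0.408% in WT libraries, but 0.0134% in both Ly6d-high libraries and 0.00887% and 0.0107% in Ly6d-low libraries. Snai2 was 0.0839% and 0.0637% in overexpression libraries and 0.0898% and 0.0701% in WT libraries, and 0.103% and 0.126% in Ly6d-high libraries and 0.0505% and 0.0543% in Ly6d-low libraries. The summed tumour epithelium markers were themselves lower in Ly6d-high than in Ly6d-low cells, and the TPM of Snai1 overlapped between these groups. The tables differ in unit, libraries and fibroblast marker level, and no test was made between them.

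Other pairs of members were compared in the same way. Twist1 was 29.4 and 33.4 times Twist2 per length in overexpression libraries, against 19.3 and 20.4 times in WT libraries, so that the groups did not overlap. It was 11.2 and 9.30 times Twist2 in Ly6d-high cells, against 13.2 and 12.0 times in Ly6d-low cells, again without overlap. Zeb1 was 0.772 and 1.04 times Zeb2 in overexpression libraries, against 0.924 and 0.765 times in WT libraries, with overlapping groups. It was 1.73 and 2.22 times Zeb2 in Ly6d-high cells, against 2.02 and 2.17 times in Ly6d-low cells, also with overlap. Fn1 was 1.22 and 1.14 times Vim in overexpression libraries, against 1.01 and 1.13 times in WT libraries. It was 0.211 and 0.230 times Vim in Ly6d-high cells, against 0.167 and 0.166 times in Ly6d-low cells. In both tables Fn1 thus stood higher relative to Vim in the group with more Ly6d, but with overexpression the nearest libraries were close, at 1.14 and 1.13. How often other gene pairs lie apart in this way was not examined. With 2 libraries a group, an exact permutation test of such a ratio can give no two-sided p below 0.333, and none was made.

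**Figure D4:**
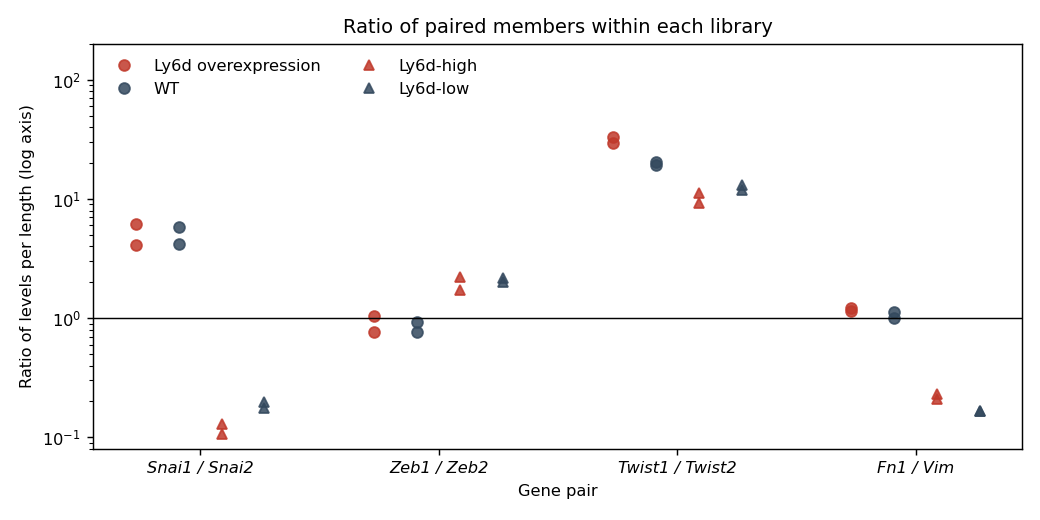
Ratio of paired members within each library, per base of gene length, on a log axis; the line marks a ratio of 1. The points for Snai1 over Snai2 lie from 4.14 to 6.11 in overexpression and WT libraries and from 0.107 to 0.196 in Ly6d-high and Ly6d-low libraries.

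The wider programme was read from 5 lists of 94 genes in all, each in the fit over all genes. In overexpression against WT libraries, 2 of 24 tested mesenchymal effectors rose and none fell. These were Col1a2, a chain of type I collagen, with 406 and 406 CPM in overexpression libraries, against 293 and 325 CPM in WT libraries, and Pdgfrb, a growth factor receptor of fibroblasts and mural cells, with 141 and 157 CPM, against 102 and 113 CPM. Both had no overlap between groups, with log2 fold changes of 0.38 ± 0.07 (adjusted p = 0.0129, edgeR) and 0.45 ± 0.09 (0.0132). Both are also among the fibroblast markers above. Of 11 other transition factors tested 1 rose, Foxq1 at 0.44 ± 0.10 (adjusted p = 0.0278), and 0 of 15 genes of TGF-beta signalling, a pathway that induces the transition, were called by edgeR or DESeq2, with 2 at an unadjusted p under 0.05. The call of Foxq1 was lost without either WT library.

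Among 26 epithelial junction and keratin genes, 1 rose and 1 fell with overexpression. Tjp1, a scaffold of tight junctions, rose by 0.32 ± 0.07 (adjusted p = 0.0331, edgeR). Cldn4, whose promoter is shown above, had 49.9 and 43.6 CPM in overexpression libraries, against 82.1 and 80.1 CPM in WT libraries. Its overexpression libraries were far below its WT libraries, with a log2 fold change of -0.81 ± 0.10 (adjusted p = 0.000667). Rab25 and Ap1m2 were lower too but not called, at -0.88 ± 0.50 and -1.09 ± 0.32. Of 13 gatekeepers tested, Klf5 (0.37 ± 0.08, adjusted p = 0.0262) and Elf3 (0.27 ± 0.06, adjusted p = 0.0357) rose, both transcription factors of epithelial cells. Of these calls, that of Cldn4 was made in all 10 alternatives, those of Tjp1 and Elf3 were lost without WT replicate 1 or overexpression replicate 1, that of Elf3 also without overexpression replicate 2, and that of Klf5 without WT replicate 2. The list medians were 0.13 for the effectors, 0.03 for the other transition factors, 0.10 for TGF-beta signalling, -0.15 for junction and keratin genes and -0.32 for gatekeepers, against -0.00 for all genes. An unadjusted p under 0.05 (edgeR, either direction) was found in 10 of 24 effectors, 2 of 11 other transition factors and 2 of 15 TGF-beta genes. It was found in 11 of 26 junction and keratin genes and 8 of 13 gatekeepers, against 2727 of 15771 genes over all. Without a low count filter, edgeR called 2 of 15 gatekeepers higher and 4 lower. It then called 2 of 26 junction and keratin genes higher and 4 lower, against 608 higher and 579 lower of 25175 genes over all.

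In Ly6d-high against Ly6d-low cells, 7 of 26 junction and keratin genes rose and 4 fell. Ap1m2 had 25.9 and 29.9 TPM in Ly6d-high cells, against 2.11 and 1.46 TPM in Ly6d-low cells. Rab25 had 45.5 and 44.8 TPM in Ly6d-high cells, against 3.86 and 4.69 TPM in Ly6d-low cells. Cldn4 had 81.2 and 94.6 TPM in Ly6d-high cells, against 13.6 and 13.0 TPM in Ly6d-low cells. In all 3, Ly6d-high libraries were several times above Ly6d-low libraries, with differences of 3.38 ± 0.20 (adjusted p = 0.000111, limma), 3.13 ± 0.16 (7.67e-05) and 2.63 ± 0.15 on the log2(TPM + 1) scale. Cldn3 rose as well, by 1.24 ± 0.12 (adjusted p = 0.00112). The genes that fell were Krt19, Krt8, Krt7 and Krt18, keratins of simple epithelium, among them Krt19 by 0.66 ± 0.07 and Krt8 by 0.50 ± 0.06. With TMM scaling 6 junction and keratin genes were called higher and 1 lower. Without a low value filter 6 were called higher and 0 lower, so that all 4 keratin calls were lost. TMM scaling also ended the calls of Krt19, Krt8 and Krt18, and a filter of 0.1 TPM those of Krt8 and Krt18. Leaving out Ly6d-low replicate 1 ended that of Krt7, and leaving out Ly6d-low replicate 2 that of Krt18. All 4 keratins stayed called lower with edgeR and with DESeq2 on the recovered reads. None of the 4 changed direction in any alternative. The E-box stood in promoters of genes that rose (Ap1m2, Rab25, Cldn4, Cldn3 and Cldn7) and of genes that fell (Krt7, Krt8 and Krt18). Some called genes of either direction, Krt19 among them, had no promoter entry. Because 17 of the 19 genes of this list with an entry held the motif, it cannot separate genes that rose from genes that fell. The change of Cldn4 was thus in opposite directions in the 2 comparisons, and the difference between them was not tested.

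Gatekeepers were called higher in 3 of 13 tested and lower in 0. Ovol1, a zinc finger repressor of Zeb1, had 4.09 and 5.13 TPM in Ly6d-high cells, against 1.20 and 1.17 TPM in Ly6d-low cells, a difference of 1.35 ± 0.21 (adjusted p = 0.00885, limma). Grhl2, which maintains junction genes, rose by 1.22 ± 0.23 (adjusted p = 0.0192), and Ehf, an epithelial Ets factor, by 0.74 ± 0.15 (0.0269). Their Ly6d-high libraries lay above the Ly6d-low libraries in each case. Of 9 other transition factors tested, Foxc1 (1.10 ± 0.21, adjusted p = 0.0201) and Sox4 (0.74 ± 0.18, 0.0460) rose. Of 14 TGF-beta genes, the ligands Tgfb2 and Tgfb3 rose: Tgfb2 had 8.92 and 9.50 TPM in Ly6d-high cells, against 3.97 and 3.84 TPM in Ly6d-low cells (1.06 ± 0.17, adjusted p = 0.0111). None of 22 mesenchymal effectors was called by limma, nor any by edgeR or DESeq2 on the recovered reads. By limma 8 of them were at an unadjusted p under 0.05, as were 4499 of 14625 genes over all. So were 18 of 26 junction and keratin genes, 7 of 13 gatekeepers, 3 of 9 other transition factors and 8 of 14 TGF-beta genes. List medians were 0.56 for gatekeepers, 0.44 for the other transition factors, 0.37 for TGF-beta signalling, 0.40 for the effectors and 0.41 for junction and keratin genes, against 0.25 for all genes. Without a low value filter the calls of Ovol1, Grhl2, Ehf, Foxc1, Sox4, Tgfb2 and Tgfb3 were lost, and with TMM scaling those of Ehf, Sox4 and Tgfb3. Leaving out either Ly6d-low library also ended the calls of Ehf, Foxc1, Sox4, Tgfb2 and Tgfb3.

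**Figure D5:**
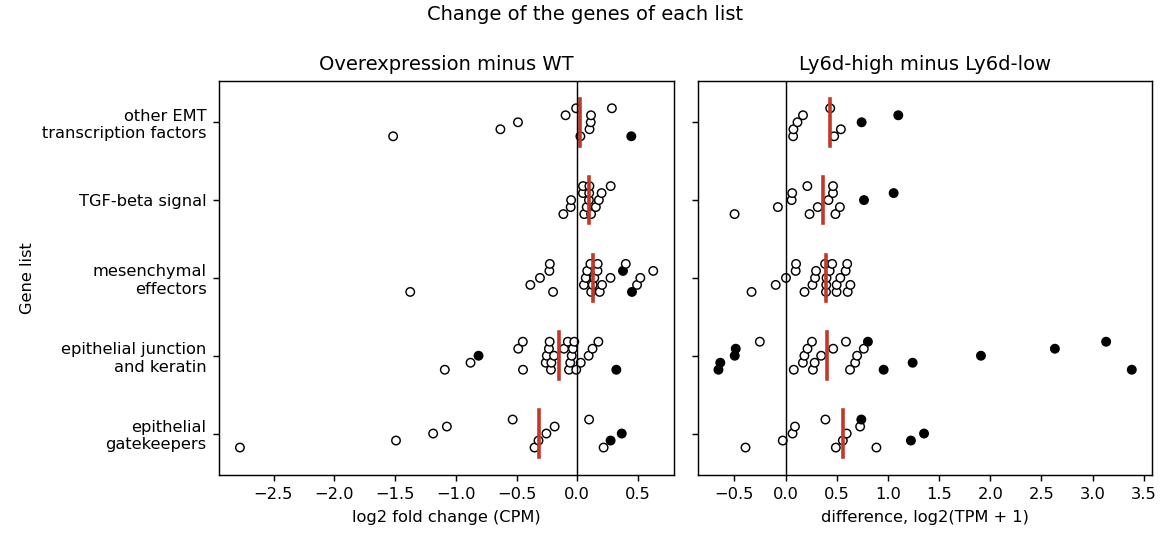
Change of each gene of the 5 lists, overexpression against WT at left (log2 fold change of CPM) and Ly6d-high against Ly6d-low at right (log2(TPM + 1) scale). Filled points passed the threshold, the red bar is the list median and the black line marks 0; Cldn4 is called lower at left, and Ap1m2, Rab25 and Cldn4 are the highest called points of the junction list at right.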

How the data were processed

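RNA was sequenced from 16 samples, of which 8 libraries in 2 deposited tables were analysed here. The submitters' processing notes name, without versions or roles, the tools HISAT2, featureCounts, fastp and DESeq2, and the build mm9. Gene coordinates in the deposited tables are those of GRCm38 for all 10 members and for 98.33% of the genes matched to GENCODE, and are given as GRCm38. The deposited count table holds raw counts per gene, per the file headers, and the other deposited table holds TPM computed by the authors over a listed gene length. The gene length column of each deposited table is of no other unit. Names of columns set their group. The names of the overexpression columns match the labels of overexpression tumours and not those of the sorted overexpression samples, and the WT names occur for sorted and tissue samples. A further 2 columns of counts matched no label, and neither these nor the 2 columns that give 1 TPM value for a whole group were used.

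Counts were compared with the edgeR 4.0.16 quasi-likelihood test (filterByExpr, TMM) in R 4.3.3, and log2(TPM + 1) with limma 3.58.1 (trend) over genes that reached 1 TPM in 2 or more of the 4 libraries, with Benjamini-Hochberg adjusted p under 0.05 over all genes tested. With the pseudocount of 1, differences of low genes are understated. TPM times length gave whole reads (100% of values within 0.1 reads), which served edgeR and DESeq2 1.42.0 as alternatives. Levels of the count table are compared between genes as RPKM and not TPM, because the 57-base Gm23935 took 0.823% of counts in WT replicate 2. The standard error of an edgeR fold change is the fold change over the square root of its F statistic, and intervals are 95%. On simulated data with 100 genes changed 2-fold and 100 changed 4-fold, edgeR recovered 83 and 100 in the overexpression comparison (15660 genes), and limma 29 and 95 in the Ly6d-high comparison (14609 genes). They also called 8 and 27 unchanged genes. The simulation used the same dispersion for every gene and changed only genes with many reads. The members' differences were smaller than 2-fold, so these rates do not show what the members' tests could detect.

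The members and lists were chosen with earlier results of these data known. The text names all members, Ly6d, up to 4 called genes of each list and direction with the lowest p, and the junction genes whose promoters are shown. Other names (Prrx2, Gm23935, the antisense genes and the markers Pdpn, Rgs5 and Cldn7) were chosen after their values were seen. Promoters are from RefSeq, GRCm38.p6. Alternatives were other scalings, filters, pseudocounts and tests, a replicate block and leaving out each library.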

Additional observations from a re-analysis of the deposited data

How the results depend on the processing

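Leaving out each library in turn, which leaves a lone library assumed to vary like the others, gave 0 to 2 members called in overexpression against WT libraries and 0 to 7 in Ly6d-high against Ly6d-low cells. Over all genes the calls ran from 565 to 1584 and from 931 to 6710, and over the lists from 9 to 16 and from 10 to 62. Under the same alternatives log2 fold changes with overexpression ran from -0.11 to 0.14 for Snai1, from -0.19 to 0.18 for Snai2 and from -0.15 to 0.013 for Prrx1. Differences in Ly6d-high cells ran from -0.036 to 0.23 for Vim and from -0.15 to 0.10 for Snai1. The 7 members and the 6710 genes, of 13627 tested, were called in the same fit, without Ly6d-high replicate 1. Calls were thus common over all genes in that fit, and its member calls do not set the members apart.

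In overexpression against WT libraries, DESeq2 called 2 members and 11 list genes, in place of 1 and 7. Without a low count filter there were 2 members, 16 list genes and 1187 genes over all, in place of 656. With library totals alone the value of Snai2 was 0.0011. In Ly6d-high against Ly6d-low cells the main counts were 0 members, 18 list genes and 1435 genes. Without a low value filter there were 6 list genes and 531 genes, and with TMM scaling 948 genes. Vim turned to -0.18 with TMM scaling, -0.20 with edgeR and -0.21 with DESeq2 on recovered reads. The cause of these shifts was not tested.

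The labels do not say that libraries of the same number were paired. Over genes, deviations from the group mean correlated at -0.055 between replicate 1 of the overexpression and WT groups. The value was 0.302 between replicate 1 of Ly6d-high and Ly6d-low cells. With 2 libraries a group, deviations of replicate 2 are those of replicate 1 with the sign turned, so the second pair adds nothing. With a replicate block there were 1 member and 4 list genes called with overexpression, the calls of Foxq1, Tjp1 and Elf3 being lost. Over all genes 459 of 15771 were called there, 256 higher and 203 lower. In Ly6d-high cells there were 4 members (Fn1, Snai2, Twist1 and Twist2) and 45 list genes. Over all genes 4179 of 14625 were called with this block, 3581 higher and 598 lower. Over the 10 members and all alternatives, 88 values with overexpression kept direction and side of the threshold, 5 gained a call, 1 lost it and 6 changed sign. In Ly6d-high cells 102 kept both, 13 gained a call and 5 changed sign. The fewest counts of a member were those of Twist2 in overexpression and WT libraries (45 to 67), and in Ly6d-high and Ly6d-low cells Twist2 had 44 to 99 reads and Snai1 49 to 76.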

Other observations

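Further cell type markers had the following values. Pan-leukocyte markers summed to 32.6 to 37.9 CPM in overexpression libraries and 5.89 to 6.63 CPM in WT libraries, with 3 of 3 called higher, and to 3.91 to 5.51 TPM in Ly6d-high cells and 1.71 to 2.34 TPM in Ly6d-low cells. Neutrophil markers summed to 161 to 197 TPM in Ly6d-high cells and 61.3 to 63.4 TPM in Ly6d-low cells. B and plasma cell markers summed to 82.4 to 82.9 CPM in overexpression libraries and 6.08 to 7.62 CPM in WT libraries, and to 76.0 to 89.4 TPM in Ly6d-high cells and 1.20 to 2.90 TPM in Ly6d-low cells. Acinar markers, genes of pancreatic digestive enzymes, summed to 1178 to 1307 CPM in overexpression libraries and 16510 to 17030 CPM in WT libraries, but to 8170 to 8514 TPM in Ly6d-high cells and 3284 to 3367 TPM in Ly6d-low cells. Rgs5, a marker of mural cells, had 17.6 and 19.1 CPM in overexpression libraries, against 29.0 and 31.2 CPM in WT libraries, and 68.7 and 78.5 TPM in Ly6d-high cells, against 3.35 and 3.25 TPM in Ly6d-low cells. Pdpn, the gene of podoplanin, was the single fibroblast marker called in Ly6d-high cells, with 2.75 and 3.14 TPM, against 1.18 and 0.936 TPM in Ly6d-low cells (adjusted p = 0.0396, limma).

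Prrx2, a paralogue of Prrx1, had 131 and 148 TPM in Ly6d-high cells, against 133 and 131 TPM in Ly6d-low cells, so that it lay far above the mean of 3.68 TPM for Prrx1 and its groups overlapped. It had 49.8 and 55.1 CPM in overexpression libraries, against 46.3 and 55.5 CPM in WT libraries. Antisense genes overlap 5 members besides Twist2. Gm10125 over Zeb1 had 23 to 44 counts and 8 to 23 reads, Zeb2os over Zeb2 had 3 to 20 counts and 0 to 5 reads, and Apol7d over Fn1 had 1 to 6 counts and 7 to 11 reads. Gm20471 over Prrx1 had 0 counts and 1 to 4 reads, and Gm15485 over Cdh2 had 0 of both.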
